A study of Mus musculus with 4 samples.

Results

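Klf2, Klf4, Klf6, Klf10, S1pr1, S1pr3 and Spns2 were followed through the cells of hypoxic mouse lungs as a set of 7 genes, out of 31253 gene features in the count matrices. They were chosen by symbol: 4 encode Krüppel-like transcription factors of which several respond to fluid shear, and 3 encode receptors for, or the exporter of, the lipid sphingosine-1-phosphate (S1P). The libraries came from lungs of Vegfr2Y949F mice, whose VEGF receptor Vegfr2 carries the amino acid exchange of the name, and of WT mice, all on the C57BL/6J background, all 6 to 8 weeks old and all exposed to hypoxia for 6 weeks. The genotypes had 2 libraries each, labelled set A and set B, and each library held cells pooled from the lungs of 2 mice. The hypoxia was shared by both genotypes and no lung kept in normal air was analysed here. Neither the sex of the pooled animals, nor whether the exchange was homozygous, nor what the set letter marks is stated in the labels. UMI counts per gene (UMI, unique molecular identifier, a tag that marks 1 captured RNA molecule) do not show a single amino acid exchange, so the genotype labels could not be checked on the targeted gene.

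KLF2 and KLF4 are transcription factors that laminar blood flow induces in endothelial cells, through the kinases MEKK3, MEK5 and ERK5 and the MEF2 factors. They are known for raising genes such as the nitric oxide synthase Nos3 and thrombomodulin Thbd, and for lowering inflammatory and clotting genes. KLF6 responds to injury and KLF10 to TGF-beta, and Klf2, Klf4 and Klf6 are also among the genes that tissue dissociation can switch on. S1P leaves endothelial cells through the transporter SPNS2 and acts on the receptors S1PR1, which stabilises endothelial junctions and guides lymphocyte exit from tissues, and S1PR3, which couples to contraction in mural cells.

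The 4 libraries held 15160 and 11992 barcodes in Vegfr2Y949F A and B, against 13567 and 12568 in WT A and B, with 83606389 to 96521589 UMIs each. After filtering, 41116 cells remained, with library medians of 4300 to 5542 UMIs per cell, and 36318 of them fell into 22 types named from marker genes. Names such as arterial stand for clusters called arterial-like and the like from those markers, since no cell annotation by the authors was used. Blood endothelial cells made up 23218 cells, including 1143 without a finer type and leaving out lymphatic cells. The 7 genes and 12 immediate early genes were kept out of the clustering. Libraries shared 43 to 70 barcodes in pairs. The summed counts of general capillary cells showed no library to be a copy of another, the chi-square statistic per degree of freedom being 14.9 to 98.7 over the 6 pairs. Levels are given in CPM, the UMIs of a gene per 1000000 UMIs of all cells of that type in that library.

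In mm10, with the gene models of GENCODE M21, Klf2 lies at chr8:72319033-72321656 on the plus strand, Klf4 at chr4:55527143-55532466 on the minus strand, Klf6 at chr13:5861482-5870394 on the plus strand and Klf10 at chr15:38291463-38300706 on the minus strand. S1pr1 lies at chr3:115710433-115715072 on the minus strand, S1pr3 at chr13:51408639-51422797 on the plus strand and Spns2 at chr11:72451638-72489904 on the minus strand.

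RefSeq promoter windows (GRCm38.p6, the 250 bases before the RefSeq start) are shown for the 3 factors most tied to flow or dissociation and for S1pr3, the gene of the set with the opposite cell type pattern. The window of Spns2 (chr11:72475028-72475277, minus strand), not shown, belongs to a RefSeq start inside the gene span given above. It had a GC content of 51.6% and none of the sites marked here. The bases before the GENCODE start of Spns2 were not searched. Klf10 and S1pr1 had no window among those available. Capitals mark MEF2 sites, GC boxes (GGGCGG) and CACCC boxes (CACCC), the last 2 being letters that KLF family zinc fingers are known to bind, searched on both strands.
Klf2 (chr8:72318812-72319061, plus strand): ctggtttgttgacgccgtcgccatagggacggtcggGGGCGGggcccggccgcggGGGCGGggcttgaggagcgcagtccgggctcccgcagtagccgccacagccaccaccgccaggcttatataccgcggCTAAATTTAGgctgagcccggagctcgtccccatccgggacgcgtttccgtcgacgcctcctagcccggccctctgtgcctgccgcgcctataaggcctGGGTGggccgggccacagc
Klf4 (chr4:55532476-55532725, minus strand): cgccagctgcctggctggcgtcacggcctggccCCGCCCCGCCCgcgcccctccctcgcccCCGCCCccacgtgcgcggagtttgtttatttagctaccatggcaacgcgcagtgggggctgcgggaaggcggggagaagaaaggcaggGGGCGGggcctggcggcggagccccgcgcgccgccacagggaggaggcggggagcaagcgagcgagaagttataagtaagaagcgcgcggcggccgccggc
Klf6 (chr13:5861239-5861488, plus strand): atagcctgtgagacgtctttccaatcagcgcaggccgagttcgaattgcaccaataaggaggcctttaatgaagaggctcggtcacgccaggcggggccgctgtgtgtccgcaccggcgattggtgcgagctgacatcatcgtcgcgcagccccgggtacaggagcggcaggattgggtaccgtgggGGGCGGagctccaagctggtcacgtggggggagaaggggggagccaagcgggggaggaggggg
S1pr3 (chr13:51408368-51408617, plus strand): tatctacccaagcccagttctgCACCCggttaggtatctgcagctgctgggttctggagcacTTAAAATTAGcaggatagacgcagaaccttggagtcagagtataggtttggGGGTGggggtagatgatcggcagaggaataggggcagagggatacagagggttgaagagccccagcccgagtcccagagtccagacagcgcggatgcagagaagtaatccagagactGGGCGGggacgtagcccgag
The Klf2 window held 1 MEF2 site at position -118 from the start, 2 GC boxes and 1 CACCC box. The Klf4 window held 4 GC boxes, of which 2 overlap by a base, the Klf6 window 1 GC box, and the S1pr3 window 1 MEF2 site at -188, 1 GC box and 2 CACCC boxes. Of 32851 RefSeq windows of this length, 2.92% held a MEF2 site, 32.7% a GC box and 52.0% a CACCC box. The GC content was 71.2% in the Klf2 window, 74.0% in Klf4, 64.8% in Klf6 and 56.4% in S1pr3, against a mean of 53.2% over all windows. Matches describe the letters of these windows and no binding was measured.

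Of the 7 genes, 5 were higher in blood endothelial cells than in the rest of the lung, Klf6 was not called, and S1pr3 was almost absent from endothelium. Of the 5, the exporter Spns2 and the receptor S1pr1 had the widest gaps. With all named cells other than blood endothelium summed per library as the reference, Spns2 was 15.6-fold higher in blood endothelium (95% interval 12.9 to 18.9; edgeR adjusted p = 9.29e-08) and S1pr1 11.9-fold higher (9.35 to 15.1; edgeR adjusted p = 3.47e-07). Klf2 was 3.44-fold higher (2.74 to 4.33), Klf4 3.08-fold (2.60 to 3.64) and Klf10 1.68-fold (1.38 to 2.05). Klf6 had a ratio of 0.997 (0.739 to 1.34; edgeR adjusted p = 0.986), and S1pr3 was lower in endothelium by 6.07 on the log2 scale (SE 0.21). The test calls an edgeR quasi-likelihood p under 0.05 after Benjamini-Hochberg adjustment over all genes, and 74.6% of all genes tested differed between these 2 sums, a background against which the 6 calls among 7 genes are to be read.

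**Figure D1:**
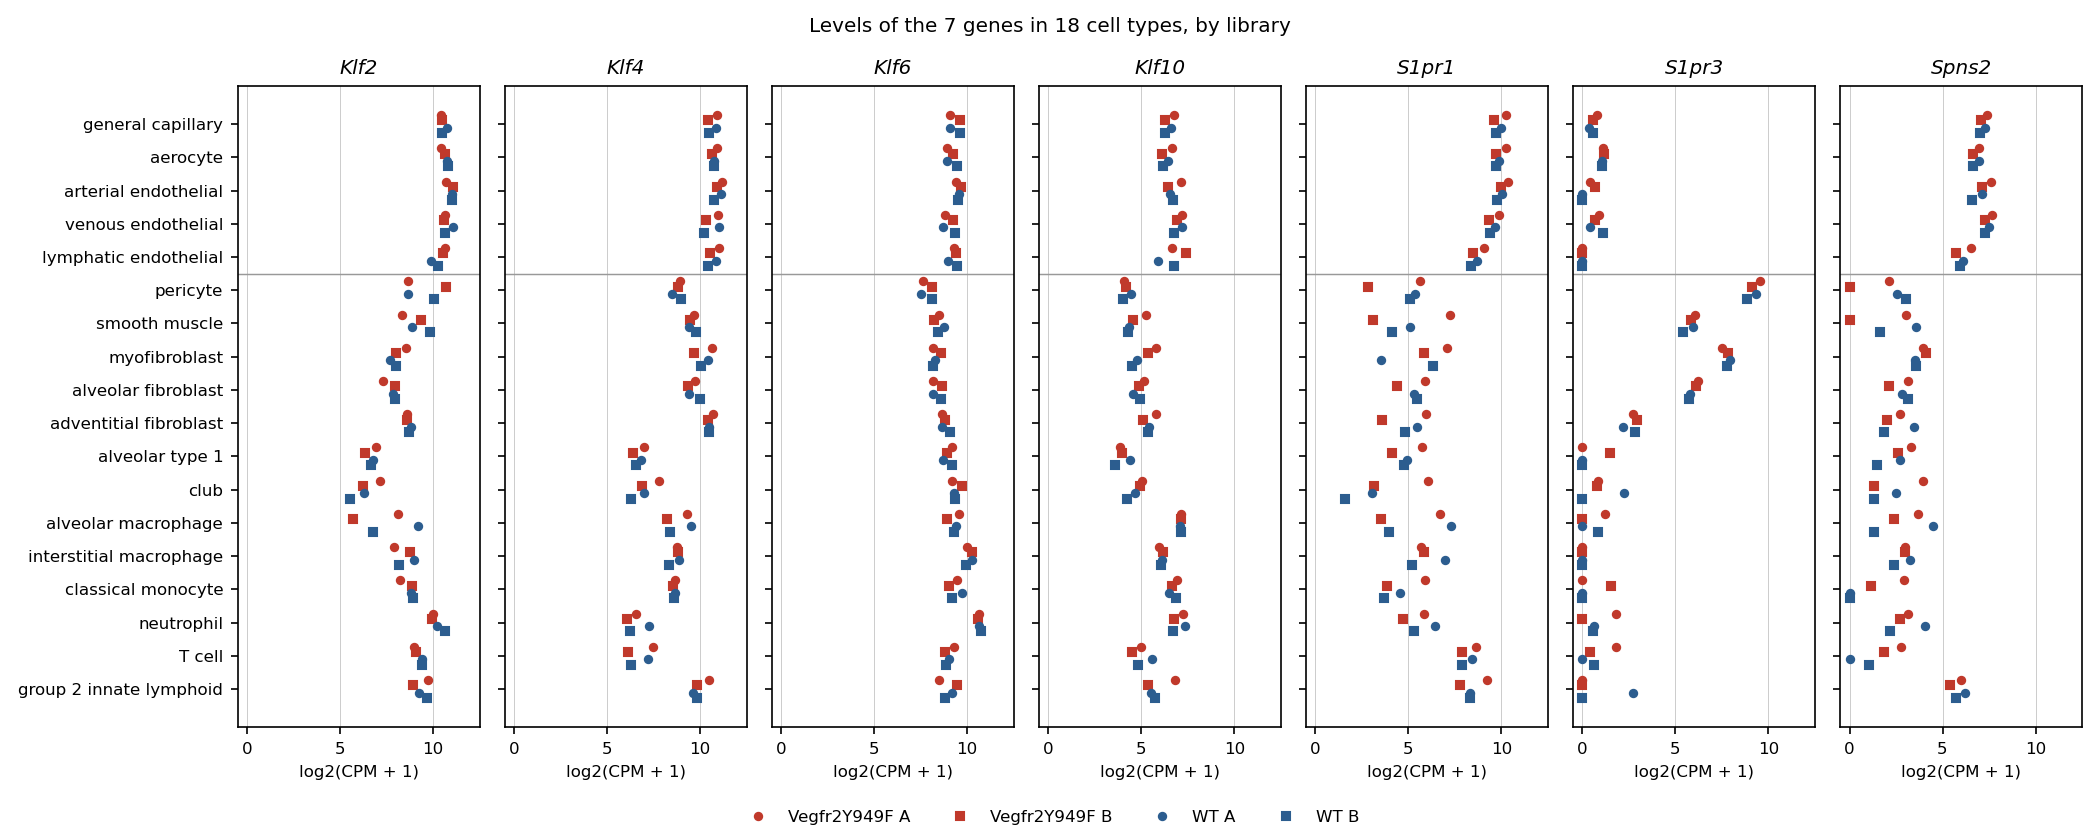
Level of each gene as log2(CPM + 1) in the 18 types with at least 20 cells in every library, with 1 point per library (red Vegfr2Y949F, blue WT; circles set A, squares set B) and endothelial types above the grey line. S1pr1 and Spns2 have their highest means in the 4 blood endothelial types, with lymphatic endothelium overlapping group 2 innate lymphoid cells, and S1pr3 has its highest means in pericytes and myofibroblasts, while Klf6 is highest in neutrophils and Klf10 in alveolar macrophages.

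Klf2 was highest in arterial endothelium, at 1657 and 2141 CPM in Vegfr2Y949F A and B against 2051 and 2083 CPM in WT A and B. The order below it was venous (1709 ± 277 CPM, mean ± SD over the 4 libraries), aerocyte (1616 ± 178), general capillary (1489 ± 170) and lymphatic endothelium (1304 ± 286), followed by neutrophils (1197 ± 273). Each of these neighbours overlapped in its range over libraries. Pericytes had 402 and 1656 CPM of Klf2 in Vegfr2Y949F A and B, against 400 and 1054 CPM in WT A and B, so the set B libraries were high in both genotypes. The 12 immediate early genes summed to 18398 and 23590 CPM in the same Vegfr2Y949F pericytes, against 14380 and 25225 CPM in WT, again higher in set B, and their part in the Klf2 level was not tested. Klf2 was lowest in alveolar type 1 (103 ± 18.2 CPM) and club cells (84.5 ± 39.4 CPM).

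Klf4 followed the same outline with a longer reach into fibroblasts. Arterial endothelium had 2352 and 1903 CPM in Vegfr2Y949F A and B against 2238 and 1690.4 CPM in WT A and B, and the other 4 endothelial types averaged 1635 to 1727 CPM with overlapping ranges. Adventitial fibroblasts came next at 1679 and 1362 CPM in Vegfr2Y949F against 1411 and 1445 CPM in WT, and myofibroblasts averaged 1203 ± 356 CPM. In these 2 mesenchymal types the endothelial markers Cdh5, Pecam1, Egfl7, Tie1 and Cldn5 had medians of 4.24% and 7.51% of their endothelial level, beside Klf4 at 89.2% and 70.9%, and their part in the Klf4 level was not tested. Neutrophils had the lowest mean of the 18 types, 96.1 ± 37.9 CPM.

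Klf6, a factor of the injury response, was highest in neutrophils and interstitial macrophages among the 18 types. Classical monocytes (659 ± 141 CPM) and alveolar macrophages (633 ± 110 CPM) averaged below arterial endothelium. Neutrophils held 1593 and 1525 CPM in Vegfr2Y949F A and B against 1561 and 1705 CPM in WT A and B, above every other of the 18 types without overlap. Interstitial macrophages followed at 1113 ± 126 CPM, also clear of the next type, arterial endothelium at 739.5 ± 59.0 CPM. Ciliated cells averaged 2344 ± 473 CPM, but 1 library had only 15 of them. Pericytes were lowest at 231 ± 49.0 CPM.

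Klf10, a repressor in the TGF-beta response, was low and spread over lineages. Alveolar macrophages averaged 138 ± 2.86 CPM, neutrophils 130.3 ± 30.6 CPM and venous endothelium 130.2 ± 18.6 CPM, ranges that overlapped. Alveolar type 1 cells had 14.9 ± 3.92 CPM.

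S1pr1, the junction-stabilising receptor, was highest in endothelium. It averaged 1059 ± 189 CPM in arterial, 962 ± 183 in aerocyte, 957 ± 201 in general capillary, 763 ± 129 in venous and 407 ± 86.3 CPM in lymphatic endothelium. A UMI of S1pr1 was found in 93.0% to 96.6% of general capillary cells per library, at median depths of 3949 to 5340 UMIs, and in 75.0% to 88.4% when cells were thinned to 2000 UMIs. Alveolar type 1 cells, which should lack it, had 5.61% to 14.6% at medians of 3112 to 8012.5 UMIs, and 2.66% to 7.67% after thinning. T cells had 395 and 234 CPM in Vegfr2Y949F A and B against 339 and 236 CPM in WT A and B, with 55.9% to 72.2% of cells positive, or 34.9% to 49.4% after thinning. The endothelial markers stood at 1.99% of their endothelial level in T cells, and S1pr1 at 31.5%. Group 2 innate lymphoid cells averaged 364 ± 168 CPM of S1pr1, or 37.2% of the endothelial level, beside endothelial markers at 37.8%, whose part in that level was not tested.

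Spns2, the S1P exporter, was highest in blood endothelium. It averaged 174.5 ± 22.9 CPM in venous, 146 ± 19.0 in general capillary, 143 ± 42.2 in arterial, 111 ± 14.9 in aerocyte and 68.3 ± 16.4 CPM in lymphatic endothelium. Of the other 13 types, group 2 innate lymphoid cells had 57.5 ± 14.3 CPM, or 41.0% of the endothelial level beside endothelial markers at 37.8%, and myofibroblasts, next in order, had 12.95 ± 2.71 CPM. A UMI was found in 48.1% to 53.5% of general capillary cells (21.9% to 27.6% after thinning), against 1.03% to 4.72% of alveolar type 1 cells (0.218% to 1.84% after thinning).

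S1pr3, the other receptor, was highest in mural cells and fibroblasts. Pericytes held 742 and 554 CPM in Vegfr2Y949F A and B against 642 and 466 CPM in WT A and B, myofibroblasts averaged 218 ± 26.3 CPM, alveolar fibroblasts 61.3 ± 10.0 CPM and smooth muscle 55.9 ± 10.5 CPM. Pericytes and myofibroblasts did not overlap with their neighbours in this order. A UMI was found in 79.9% to 88.5% of pericytes and 58.3% to 75.4% after thinning. In the blood endothelium only 115 UMIs of S1pr3 were counted in all 4 libraries, and a UMI was found in 0.138% to 0.394% of general capillary cells, or 0.06% to 0.135% after thinning. That is within the range of alveolar type 1 cells (0% to 0.935%, or 0% to 0.122% after thinning) but for 1 library, and was read as background in general capillary cells. Aerocytes had a UMI of S1pr3 in 0.94% to 1.35% of cells at medians of 7424 to 8894 UMIs, or 0.163% to 0.349% after thinning, above the alveolar type 1 range in every library. Lymphatic endothelium had 0 UMIs of S1pr3 in 313 cells, which allows a share of up to 0.958%.

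**Figure D2:**
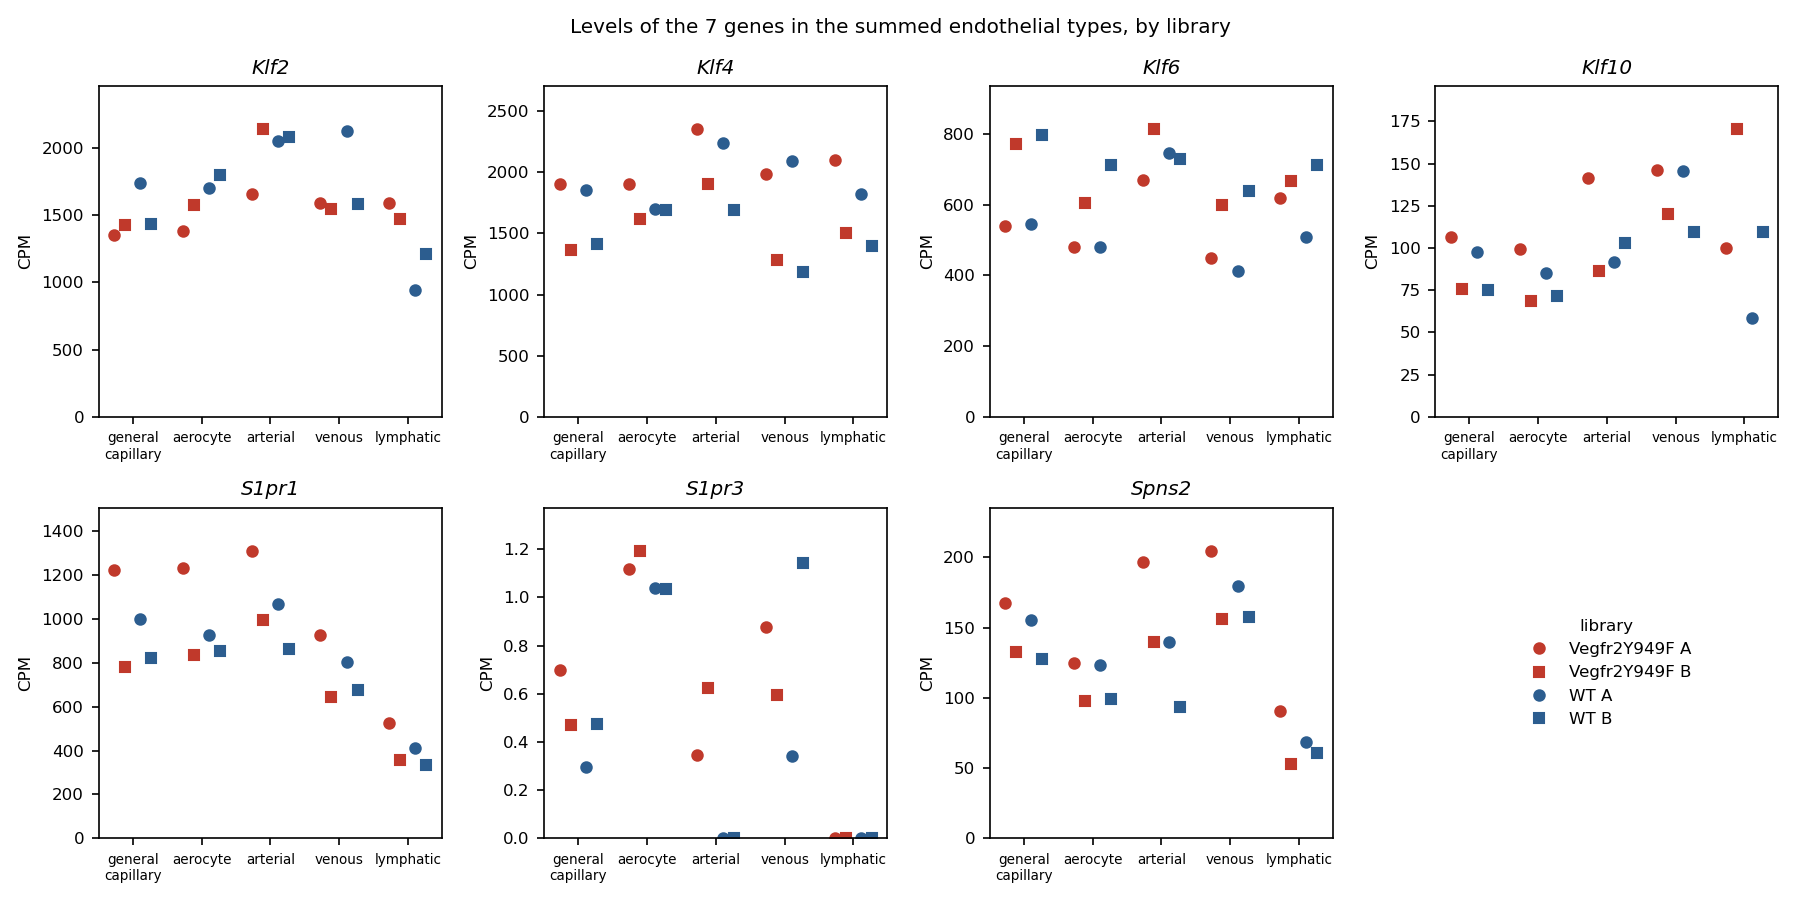
CPM of the 7 genes in 5 endothelial types, 1 point per library (red Vegfr2Y949F, blue WT; circles set A, squares set B), each panel with its own axis from 0. Libraries of the same set letter often lie together, as for Klf6 in general capillary cells (771 and 796 CPM in set B, against 539 and 546 CPM in set A), and the S1pr3 panel spans less than 1.3 CPM.

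Arterial endothelium had more Klf2 and Klf4 than the general capillary cells of the same libraries. In edgeR with the library as a block, Klf2 was 1.33-fold higher (log2 0.41, SE 0.06, adjusted p = 2.33e-05) and Klf4 1.25-fold higher (log2 0.33, SE 0.05, adjusted p = 0.000101). Klf10 was called at 1.19-fold (log2 0.25, edgeR adjusted p = 0.0442), but not without Vegfr2Y949F A (0.259), without Vegfr2Y949F B (0.0890) or without WT B (0.180). Klf6 (log2 0.18, edgeR adjusted p = 0.133), S1pr1 (log2 0.15, adjusted p = 0.0803) and Spns2 (log2 -0.05, adjusted p = 0.781) were not called. Klf6 was called without WT B (log2 0.28, edgeR adjusted p = 0.00646). In this contrast 18.9% of all genes were called, against 3 of the 6 members tested, S1pr3 being too low for the filter here and in the arterial to venous, lymphatic and score comparisons. The clusters were made from other genes, with the members left out. When they and the immediate early genes were allowed in, arterial Spns2 was called lower (log2 -0.28, edgeR adjusted p = 0.0345).

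Venous endothelium differed from general capillary cells in 5 of the 7 members, against 28.6% of all genes. Klf10 was 1.52-fold higher (log2 0.60, SE 0.05, edgeR adjusted p = 3.28e-08), Spns2 1.23-fold higher (log2 0.30, SE 0.05, adjusted p = 7.74e-05) and Klf2 1.18-fold higher (log2 0.24, SE 0.04, adjusted p = 0.000154). Klf6 (log2 -0.29, SE 0.04, edgeR adjusted p = 3.17e-05) and S1pr1 (log2 -0.27, SE 0.04, adjusted p = 5.33e-05) were lower. Klf4 was at log2 0.02 with an interval of -0.09 to 0.13. All 5 calls held without each library in turn.

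Set directly against venous cells, arterial cells had more Klf6, S1pr1 and Klf4, and less Klf10 and Spns2. S1pr1 was 1.34-fold higher (log2 0.43, SE 0.05, edgeR adjusted p = 9.20e-06), Klf6 1.38-fold (log2 0.47, SE 0.08, adjusted p = 0.000262) and Klf4 1.24-fold (log2 0.31, SE 0.06, adjusted p = 0.000837). Klf10 (log2 -0.35, edgeR adjusted p = 0.0125) lost its call without WT A (0.122) and without Vegfr2Y949F B (0.0913), and Spns2 (log2 -0.36, adjusted p = 0.00870) lost it without WT B (log2 -0.23, 0.0691). Klf2 was not called (log2 0.18, edgeR adjusted p = 0.0610) and became so without WT A (0.00914) or Vegfr2Y949F A (0.0262). The background of called genes was 25.7%, beside 5 of 6 members tested.

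Aerocytes, the large capillary cells of the gas exchange surface, were close to general capillary cells in Klf2, Klf4 and S1pr1. The intervals of their log2 differences were -0.02 to 0.20 for Klf2, -0.06 to 0.18 for Klf4 and -0.11 to 0.08 for S1pr1. Spns2 was lower (log2 -0.42, SE 0.04, edgeR adjusted p = 2.48e-07), as were Klf6 (log2 -0.25, SE 0.05, adjusted p = 0.000247) and Klf10 (log2 -0.16, SE 0.04, adjusted p = 0.00482), and S1pr3 was called higher at 1.04 to 1.19 CPM (43 UMIs in all; log2 1.13, edgeR adjusted p = 0.00648), a call that DESeq2 did not make (adjusted p = 0.0534). Those 4 calls of 7 stood beside 55.3% of all genes called. One of the 2 aerocyte clusters had cells with a median of 3.19 times the UMIs of their libraries. Without it, the Spns2 difference was -0.92 and the Klf10 difference -0.24 on the log2 scale, and S1pr1 turned to 0.08 without a call.

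Lymphatic endothelium had 0.392 times the S1pr1 of general capillary cells (log2 -1.35, SE 0.16, edgeR adjusted p = 1.40e-15) and 0.424 times the Spns2 (log2 -1.24, SE 0.19, adjusted p = 1.29e-09). Its endothelial markers stood at 48.6% of the blood endothelial level, its S1pr1 at 42.9% and its Spns2 at 48.7%. Klf2 (log2 -0.32, edgeR adjusted p = 0.0863), Klf4 (-0.07) and Klf6 (-0.20) were not called. Klf2 was called without Vegfr2Y949F A (log2 -0.46, edgeR adjusted p = 0.0136). Klf10 was called higher (log2 0.47, edgeR adjusted p = 0.0211), but the difference was 0.03 without Vegfr2Y949F B and its call was also lost without WT B (adjusted p = 0.326). Lymphatic cells were few, 27 and 103 in Vegfr2Y949F A and B against 22 and 161 in WT A and B, and 34.3% of all genes were called in this contrast, beside 3 of the 6 members tested. Scaling by library totals in place of TMM raised all 6 differences, putting S1pr1 at -1.23, Spns2 at -1.15 and Klf4 at 0.06.

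**Figure D3:**
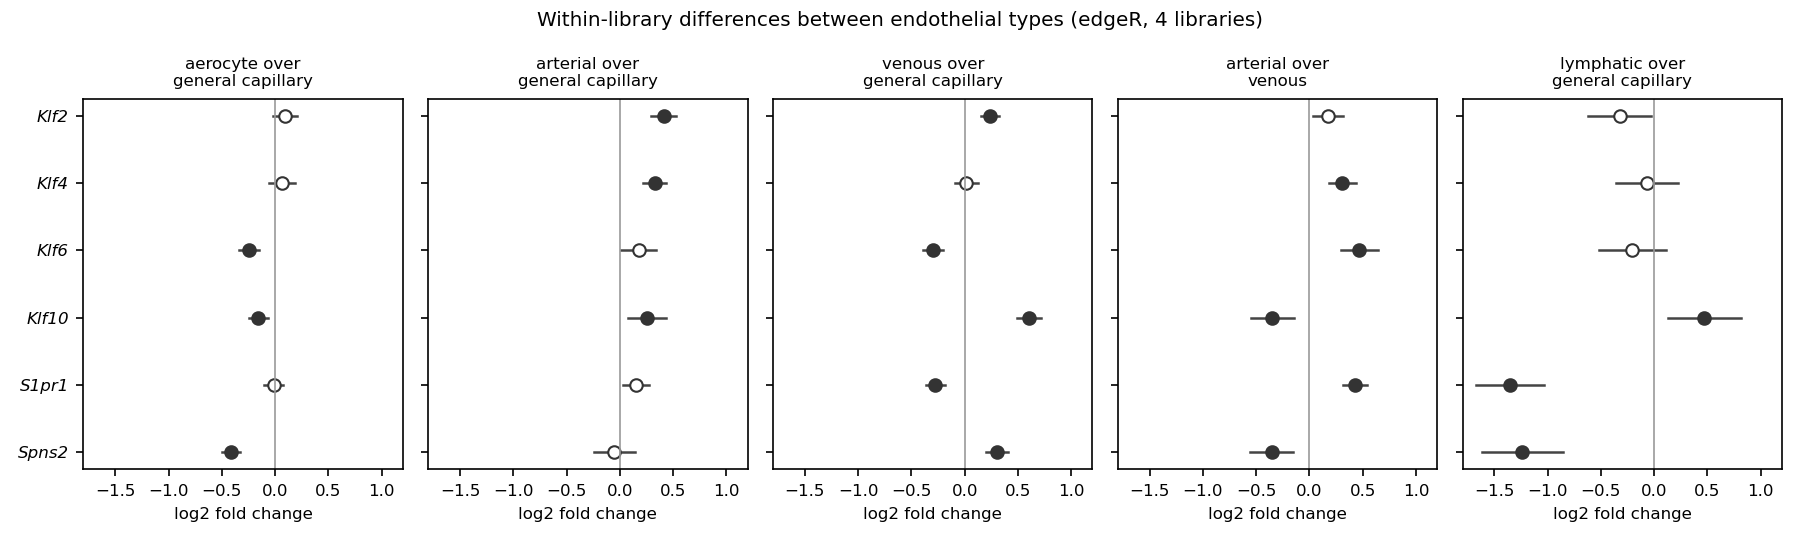
log2 fold change of 6 genes between endothelial types within libraries (points, edgeR over 4 libraries; bars, 95% intervals; filled points, adjusted p under 0.05). Klf2 and Klf10 are higher in both arterial and venous cells than in general capillary cells. Set against each other, arterial and venous cells differ in Klf4, Klf6, Klf10, S1pr1 and Spns2. Of these calls, those of Klf10 and Spns2 depended on single libraries, as did the arterial Klf10 call against general capillary cells. The widest differences are the lower S1pr1 and Spns2 of lymphatic cells.

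Genes around the 7 were read as lists. Unlike the members, and apart from the 12 immediate early genes, they were not kept out of the clustering, so these counts describe the types. They are counts of genes called by edgeR against general capillary cells, and the shares of all genes called were 28.6% in venous, 18.9% in arterial and 55.3% in aerocyte cells. Of 9 tested genes that KLF2 or KLF4 are known to induce in endothelium, 6 were called higher and 2 lower in venous cells. Nos3 was at log2 0.85 there, Aqp1 at 0.84, Thbd at 0.50 and Gja4 at -0.65. Gja4 is also among the markers that named the arterial cells. In arterial cells 4 of 8 were called higher and 2 lower, with Nos3 at 0.71 and Thbd at -0.30, and in aerocytes 1 of 8 was called higher and 5 lower, with Nos3 at -0.90. Of 9 genes that KLF2 or KLF4 are known to lower, 6 were called higher and 1 lower in venous cells, Vcam1 and Icam1 (both adhesion molecules, Vcam1 also a venous marker) at 7.14 and 2.03 and Edn1 (endothelin) at -0.43. The median log2 difference of the induced list was 0.28 in venous, 0.04 in arterial and -0.29 in aerocyte cells, beside -0.01 to -0.02 over all genes. Of 12 immediate early genes, 9 were called higher and 0 called lower in venous cells, 2 called higher and 7 lower in arterial cells, and 0 called higher and 8 lower in aerocytes, and the part of this in the member differences was not tested.

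The S1P enzymes were called in both directions in each of these types. Against general capillary cells, 5 of 12 were called higher and 3 lower in aerocytes, where 55.3% of all genes were called, 1 of 12 higher and 3 lower in arterial cells (18.9% of all genes), and 4 of 13 higher and 2 lower in venous cells (28.6% of all genes). Sphk1, a kinase that makes S1P, was higher in venous (log2 1.99) and arterial cells (1.43), at only 1.03 to 2.77 CPM in the blood endothelium as a whole. Acer2, a ceramidase that yields the sphingosine precursor, was lower in aerocytes (log2 -1.06) and lymphatic cells (-3.06). S1pr4, a receptor best known in blood cells, was higher in aerocytes (log2 0.76) and lower in venous (-1.06) and arterial cells (-0.45). In the route from flow to Klf2 and Klf4, 2 of 16 genes were called higher and 4 lower in venous cells, and 3 were called higher and 2 lower in arterial cells, beside the same shares of all genes, with the flow-gated channel Piezo1 at 0.41 in venous, -0.09 in arterial and -0.66 in aerocyte cells.

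Because dissociation also induces some of these factors, general capillary cells of each library were ranked by their share of UMIs in the 12 immediate early genes (Fos, Jun, Egr1, Atf3 and others, none of them a member) and divided at the library median. Klf6 and Klf4 were higher in the higher-scoring cells. Klf6 had 622 and 820.0 CPM in the higher-scoring and 442 and 725 CPM in the lower-scoring cells of Vegfr2Y949F A and B, and 652 and 879 CPM in the higher-scoring and 418 and 715 CPM in the lower-scoring cells of WT A and B. It was higher in 4 of 4 libraries (log2 0.48, SE 0.07, edgeR adjusted p = 0.000806). Klf4 was also higher in 4 of 4 (log2 0.31, SE 0.04, edgeR adjusted p = 0.000545). Klf2 was higher in the higher-scoring cells of both set B libraries and lower in those of both set A libraries, and was not called (log2 0.12, interval 0.00 to 0.24, edgeR adjusted p = 0.172). Klf10 (log2 0.07), S1pr1 (-0.01) and Spns2 (-0.08) were not called, and 14.4% of all genes were, against 2 of 6 members tested. Of 9 other KLF genes tested, 5 were called higher and 0 called lower, among them Klf5 (log2 0.68) and Klf11 (0.38).

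In set A the higher-scoring cells were deeper, at medians of 4624 against 4318 UMIs (Vegfr2Y949F) and 4101 against 3835 UMIs (WT). In set B they were shallower, at 5121 against 5589 UMIs (Vegfr2Y949F) and 4893 against 5278.5 UMIs (WT). Klf2 split by the same sets, in the opposite direction. The median mitochondrial share of higher-scoring cells was lower in every library, such as 2.46% against 2.94% (WT B). The part of depth and mitochondrial share in the member differences was not tested. The score is a range, not a kind of cell: 509 of 4059 and 622 of 3329 cells in Vegfr2Y949F A and B, and 564 of 5086 and 572 of 3393 in WT A and B, lay within 10% of the dividing value. With the upper and lower tertiles compared in place of this division, the differences were 0.74 for Klf6 and 0.47 for Klf4.

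**Figure D4:**
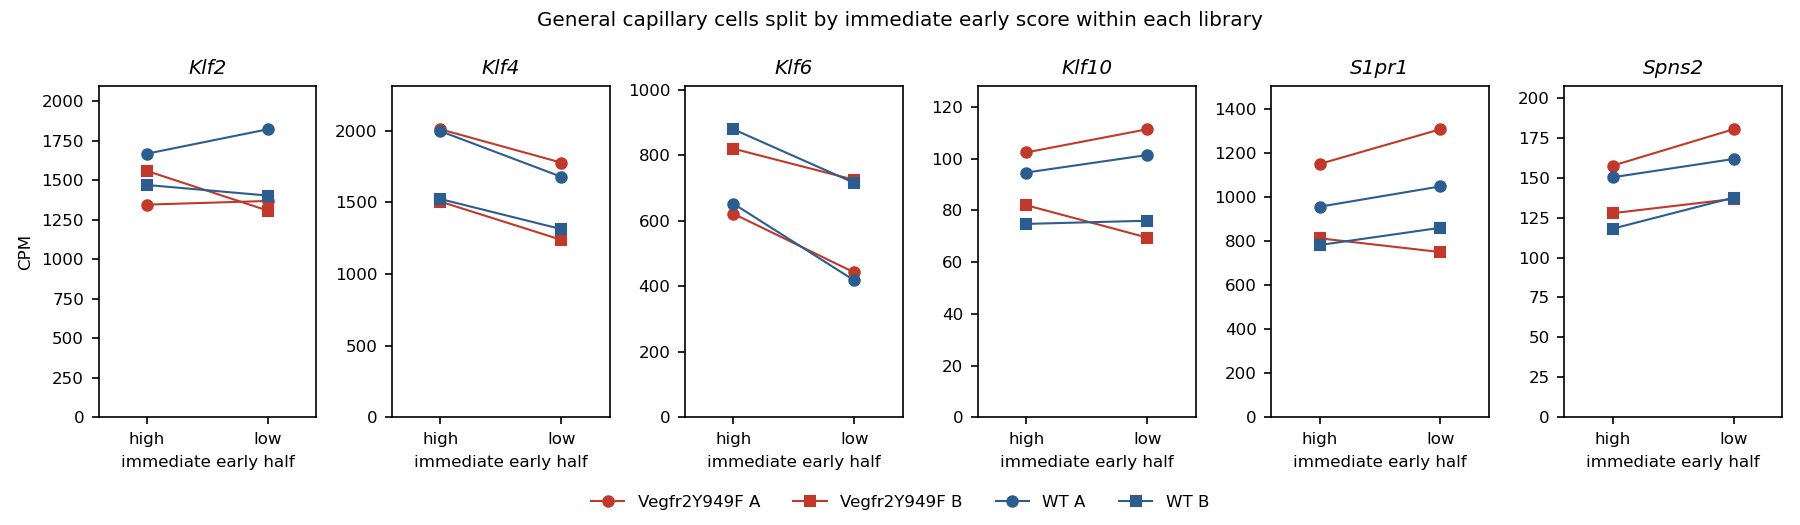
CPM of 6 genes in general capillary cells with the higher (left) and the lower (right) immediate early score of their own library, joined by a line per library (red Vegfr2Y949F, blue WT; circles set A, squares set B). All 4 lines fall from left to right for Klf4 and Klf6, and the lines of the 2 sets point different ways for Klf2.

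Clusters within the general capillary type differed in Klf2 and Klf6, given here as a description. A cluster led by Depp1, Egr3, Hbegf and Atf3 averaged 1284 ± 93.8 CPM of Klf2 and 862 ± 114 CPM of Klf6, and a cluster led by Mcf2l, Ciita and Ntrk2 had 1847 ± 210 CPM of Klf2 and 469.6 ± 41.3 CPM of Klf6. Another cluster, led by Plvap and Esm1, held 618 and 788 cells of Vegfr2Y949F A and B and 61 and 44 cells of WT A and B. Its Klf2 was 971 and 1166 CPM in Vegfr2Y949F and 1589 and 1319 CPM in WT, and its S1pr1 was 830 and 552 CPM in Vegfr2Y949F and 1030 and 987 CPM in WT. Klf4, Klf6, Klf10 and Spns2 overlapped between the genotypes in this cluster, and S1pr3 had only 15 UMIs in all. The share of all genes without overlap was not computed for the cluster, and was 23.5% in general capillary cells as a whole. The WT values rest on few cells, and these differences were not tested.

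Between genotypes, none of the 7 genes changed in blood endothelium beyond the spread between libraries. Klf2 had 1402 and 1500.4 CPM in Vegfr2Y949F A and B, against 1786 and 1567 CPM in WT A and B. Both Vegfr2Y949F libraries were below both WT libraries, by little in set B: the log2 ratio of Vegfr2Y949F to WT was -0.35 in set A and -0.06 in set B. The fitted fold was lower in Vegfr2Y949F by 0.27 on the log2 scale (SE 0.20), a 95% interval of 0.591 to 1.17 in fold, with an edgeR adjusted p of 1.00. Klf2 was the only 1 of 7 without overlap, where 21.9% of all genes had none and 7.09% lay lower in Vegfr2Y949F without overlap. In edgeR 0 of 7 were called, 0 had an unadjusted p under 0.05, and 0% of the 14010 genes tested were called, with 162 at an unadjusted p under 0.05.

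Klf4 had 1938 and 1430.5 CPM in Vegfr2Y949F A and B, against 1847 and 1468 CPM in WT A and B. The set A libraries were high and the set B libraries low in both genotypes, and the interval of the fold was 0.664 to 1.41. Klf6 had the opposite split, with 522 and 713 CPM in Vegfr2Y949F against 524 and 755 CPM in WT, and an interval of 0.579 to 1.49. Klf10 had 109 and 79.5 CPM in Vegfr2Y949F against 97.9 and 78.9 CPM in WT (0.756 to 1.36). All 3 overlapped between the genotypes.

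S1pr1 had 1210 and 789 CPM in Vegfr2Y949F A and B, against 968 and 821 CPM in WT A and B, 1 Vegfr2Y949F library above and 1 below both WT libraries. Its interval was 0.721 to 1.57 in fold. Spns2 had 160 and 126 CPM in Vegfr2Y949F against 148 and 123 CPM in WT (0.769 to 1.32), and S1pr3 0.850 and 0.650 CPM in Vegfr2Y949F against 0.515 and 0.733 CPM in WT. With 2 libraries a genotype, no difference was detected within these intervals. Leaving out 1 library turned the direction of 6 of the 7 differences at least once, all except Klf2, which ran from -0.38 without Vegfr2Y949F B to -0.16 without Vegfr2Y949F A.

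**Figure D5:**
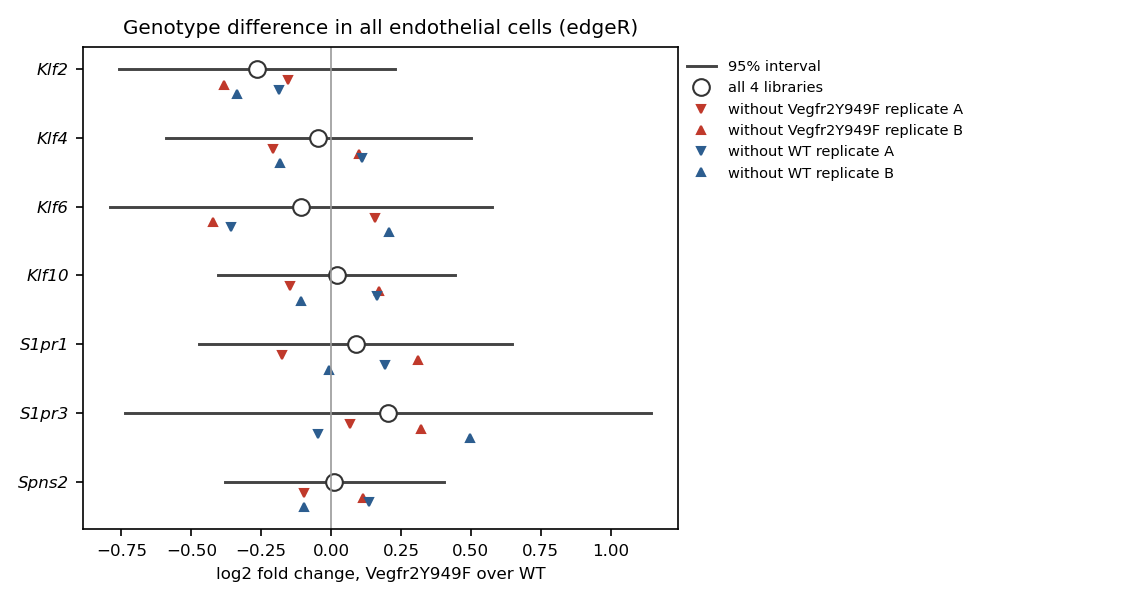
log2 fold change of Vegfr2Y949F over WT for each gene in all blood endothelial cells (open circles) with 95% intervals, and the value without each library in turn (triangles). Every interval includes 0, and the triangles fall on both sides of 0 for every gene but Klf2.

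The endothelial types gave similar values. Klf2 was lower in both Vegfr2Y949F libraries in general capillary cells (1356 and 1428 CPM in Vegfr2Y949F, against 1738 and 1435 CPM in WT; log2 -0.24, SE 0.22) and aerocytes (1386 and 1578 CPM in Vegfr2Y949F, against 1700 and 1800.1 CPM in WT; log2 -0.28, SE 0.20), where 7.83% and 8.33% of all genes lay lower without overlap. It overlapped in arterial (log2 -0.15, SE 0.27) and venous cells (1591 and 1543 CPM in Vegfr2Y949F, against 2123 and 1580.1 CPM in WT; log2 -0.29, SE 0.26). Without the cluster led by Plvap and Esm1 the general capillary difference was -0.15, an alternative added after the data were seen. No member was called in these 4 types in edgeR, where 0%, 0%, 0.0318% and 0.0194% of all genes were.

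Spns2 in arterial cells was 197 and 140.0 CPM in Vegfr2Y949F A and B, against 139.7 and 93.8 CPM in WT A and B. The lower Vegfr2Y949F library lay just above the higher WT library, as 14.2% of all genes did, and the difference was similar within set A (log2 0.49) and set B (0.57). It was not called (log2 0.49, SE 0.25, unadjusted p = 0.0723, edgeR adjusted p = 1.00). The genotype difference in arterial cells exceeded that in general capillary cells by 0.47 (SE 0.15, unadjusted p = 0.00345, edgeR adjusted p = 0.425), with 0.221% of all genes called in that interaction.

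Klf2 ran the other way in lymphatic cells, at 1591 and 1469 CPM in Vegfr2Y949F A and B, against 947 and 1211 CPM in WT A and B. Both Vegfr2Y949F libraries were higher, as for 14.1% of all genes there, and the difference was not called (log2 0.46, SE 0.32, edgeR adjusted p = 1.00). No lymphatic gene at all was called (0%).

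Outside the endothelium no member was called in any of 13 types in the edgeR fit reported. Other settings on all 4 libraries called S1pr1 in club cells (no low-count filter, or the set letter as a block). The block also called Klf2 in alveolar macrophages. Neutrophil Klf2 was 1034 and 973 CPM in Vegfr2Y949F A and B, against 1199 and 1581 CPM in WT A and B (log2 -0.52, SE 0.24, unadjusted p = 0.0614, edgeR adjusted p = 0.999). It was also lower without overlap in T cells (508 and 537 CPM in Vegfr2Y949F, against 674 and 670.0 CPM in WT; log2 -0.36, SE 0.31) and in adventitial fibroblasts (388 and 384 CPM in Vegfr2Y949F, against 448 and 421 CPM in WT). In those 3 types 12.3%, 9.41% and 13.8% of all genes lay lower in Vegfr2Y949F without overlap, and 0% were called in each. S1pr3 in pericytes overlapped (log2 0.19, SE 0.27, 0% of all genes called). In alveolar fibroblasts S1pr3 was 72.1 and 67.4 CPM in Vegfr2Y949F, against 54.2 and 51.4 CPM in WT (log2 0.35, SE 0.17, unadjusted p = 0.0644, edgeR adjusted p = 1.00), with 15% of all genes higher without overlap and 0.0341% called, 0.0171% in each direction. In group 2 innate lymphoid cells Klf4 was 1447 and 925 CPM in Vegfr2Y949F, against 781 and 918 CPM in WT, where 11.3% of all genes lay higher without overlap and 0.0325% were called. These cells were few, 22 and 40 in Vegfr2Y949F A and B against 41 and 48 in WT A and B. Their endothelial markers stood at 57.4% and 16.8% of the endothelial level in Vegfr2Y949F, against 39.1% and 37.8% in WT. The part of endothelial RNA in this Klf4 level was not tested.

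S1pr1 differed widely between libraries in types where it was low. In club cells it was 66.2 and 7.99 CPM in Vegfr2Y949F A and B, against 7.32 and 2.01 CPM in WT A and B (log2 3.01, SE 0.93, unadjusted p = 0.0121, edgeR adjusted p = 0.996; 0.0295% of all genes called). Endothelial markers there stood at 6.32% and 0.803% of their endothelial level in Vegfr2Y949F A and B, against 2.19% and 0.286% in WT, highest and lowest in the same libraries as S1pr1. In smooth muscle S1pr1 was 151 and 7.52 CPM in Vegfr2Y949F, against 32.7 and 16.5 CPM in WT (log2 1.81, SE 0.78, unadjusted p = 0.0380, edgeR adjusted p = 1.00; 0% called), and the markers stood at 9.91% and 0.671% in Vegfr2Y949F, against 4.91% and 3.40% in WT, in the same order as S1pr1. The part of endothelial RNA in these values was not tested. Leaving out single libraries made calls here: S1pr1 in club cells without WT A (log2 3.84), in smooth muscle without Vegfr2Y949F B (2.58), in alveolar fibroblasts without Vegfr2Y949F A (-1.02) and in alveolar macrophages without WT A (1.84). Klf2 in alveolar macrophages had 280.1 and 51.0 CPM in Vegfr2Y949F A and B, against 579 and 109 CPM in WT A and B (log2 -1.06, SE 0.90, edgeR adjusted p = 1.00; 0% of all genes called), and was called without WT B (-1.88). The endothelial markers there stood at 7.84% and 1.94% of their endothelial level in Vegfr2Y949F A and B, against 17.6% and 2.14% in WT A and B, in the same order as Klf2, and their part in it was not tested.

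No listed gene of the pathway around the 7 was called between genotypes in blood endothelium either. Of 13 tested S1P enzymes and carriers 0 were called, with 6 higher and 7 lower and a median log2 difference of -0.00, against -0.01 over all genes. Of 16 genes on the route from flow to Klf2 and Klf4, 8 were higher and 8 lower. Of 9 tested genes that KLF2 or KLF4 induce, 2 were higher and 7 lower with a median of -0.18 and no call, among them Nos3 at 63.2 and 49.0 CPM in Vegfr2Y949F A and B against 59.1 and 62.2 CPM in WT A and B. Of 9 genes that they lower, 3 were higher and 6 lower, and Angpt2, a ligand that loosens endothelium, had 4.80 and 6.71 CPM in Vegfr2Y949F against 2.75 and 2.43 CPM in WT (log2 1.09, SE 0.27, unadjusted p = 0.00628, not called). S1pr4 had 38.9 and 37.1 CPM in Vegfr2Y949F against 52.1 and 46.5 CPM in WT (log2 -0.44, unadjusted p = 0.0142, not called). Of 10 other KLF genes 4 were higher and 6 lower.

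The 12 immediate early genes summed to 18914 and 25826 CPM in the blood endothelium of Vegfr2Y949F A and B, against 20002 and 28360 CPM in WT A and B, with 10 of 12 lower in Vegfr2Y949F and 0 called. The 10 heat shock genes summed to 12434 and 15842 CPM in Vegfr2Y949F, against 19246 and 19075 CPM in WT, all 10 lower, with a median log2 difference of -0.47 and 0 called. Among the lower-scoring cells alone the Klf2 difference was -0.32. These cells were divided at each library's own median score, which does not even out the score between libraries. The part of the immediate early and heat shock genes in the Klf2 difference was not tested.

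Across the 18 types, the genes whose level followed each member most closely are given by Pearson's r of log2(mean CPM + 1), over 18 points that share libraries and depth. For Spns2 they were Sox18 (0.99), Podxl (0.99) and Tnfsf10 (0.98), for S1pr1 Gm9889 (0.97), Ctla2a (0.96) and Gimap5 (0.96), and for S1pr3 Adamts3 (0.97), Foxf2 (0.95) and Klhl29 (0.95). For Klf2 they were Klf7 (0.90), Cdk17 (0.90) and Rnf144a (0.89), for Klf4 Cntln (0.97), Iigp1 (0.93) and Slc39a10 (0.92), for Klf6 Gm28809 (0.86), Irak2 (0.85) and Map2k3 (0.80), and for Klf10 Tspan14 (0.90), Gngt2 (0.89) and 6430548M08Rik (0.88). Among the members, S1pr1 and Spns2 were most alike (0.89), followed by Klf2 and S1pr1 (0.77), and Klf6 and S1pr3 ran most opposite (-0.79).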

How the data were processed

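Single cells from whole lungs were measured with the 10x Genomics droplet system. The deposited values are raw UMI counts per gene and barcode, written by Cell Ranger 6.1.1 per the file headers. The submitters' processing notes name Seurat 4.1.0, fastp and UMI-tools, and the build mm10. The gene annotation used for counting is not given in the sources used here.

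From these counts, cells with at least 500 genes, 1000 UMIs and at most 15% mitochondrial UMIs were kept (Python 3.11.15, scanpy 1.11.5). The 8% of cells per library with the highest Scrublet scores were removed as doublets, since its automatic threshold marked 0 cells in 2 libraries. Cells were clustered on 2000 variable genes with Leiden (leidenalg 0.10.2), without the 7 members, the immediate early genes, Kdr, sex-linked, mitochondrial, haemoglobin and ribosomal genes. Of 39 clusters, those with a leading marker score and at least 3 detected markers were named. The names were rebuilt here, the naming thresholds were set after the data were seen, and 3655 cells outside the endothelium and 1143 endothelial cells stayed without a type. The blood endothelium includes those 1143 cells and leaves out lymphatic cells.

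Counts were summed per library and type and tested with edgeR 4.0.16 (R 4.3.3; quasi-likelihood test, TMM scaling, filterByExpr, two-sided, Benjamini-Hochberg adjustment over all genes tested, called under 0.05). Type comparisons had the library as a block. The test of a difference between genotype differences, and the fits without single clusters, were added after the data were seen. Scripts were tested on simulated data. DESeq2 1.42.0, the set letter as a block, other scalings, filters and cell sets, and each library left out in turn were the alternatives. The letters were not taken as pairs, since nothing says what they mark.

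Every member tested is named between types, between immediate early scores and between genotypes in blood endothelium. The exception is S1pr3 between venous and general capillary cells. Genotype differences in single types, and comparisons of those differences, are given for some members only, while the counts of calls cover all members tested. List genes are named by the smallest unadjusted p or a call, beside the 3 genes most alike to each member. Members and lists were chosen with earlier results of these data known. Libraries are pools of 2 mice, so p-values between genotypes measure the spread between 2 pools a genotype. Those between types or scores, with the library as a block, measure how steady the within-library difference was over the 4 pools. Shares of cells with a UMI cover counting error only, and free RNA adds to them.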

Additional observations from a re-analysis of the deposited data

Results flagged for a closer look

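The genotype difference of Klf2 had opposite signs in endothelial types. It was higher in both Vegfr2Y949F libraries in lymphatic cells (log2 0.46, SE 0.32), and lower in both in general capillary cells (log2 -0.24, SE 0.22) and aerocytes (log2 -0.28, SE 0.20). Within sets A and B the log2 ratio was -0.36 and -0.01 in general capillary cells, so set B was almost level there. It was -0.29 and -0.19 in aerocytes and 0.75 and 0.28 in lymphatic cells. In edgeR fits of both types with the library as a block, the lymphatic difference exceeded the general capillary one by 0.69 (SE 0.34, unadjusted p = 0.0414, adjusted p = 1.00) and the aerocyte one by 0.73 (SE 0.34, unadjusted p = 0.0318, adjusted p = 1.00). Neither passed the adjustment over all genes, of which 0.0621% and 0.0604% were called. The set A libraries had 27 lymphatic cells in Vegfr2Y949F and 22 in WT.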

How the results depend on the processing

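With 2 libraries a genotype, leaving out each library in turn moved 6 of the 7 genotype differences in blood endothelium across 0. In blood endothelium the log2 difference ran from -0.21 to 0.11 for Klf4, -0.42 to 0.21 for Klf6, -0.15 to 0.17 for Klf10, -0.18 to 0.31 for S1pr1, -0.0470 to 0.498 for S1pr3 and -0.10 to 0.14 for Spns2, without a call. The ranges were -0.403 to 0.0594 for Klf2 in arterial cells, -0.00426 to 0.393 for S1pr3 in pericytes and -1.58 to 2.58 for S1pr1 in smooth muscle. The number of members called ran from 0 to 1 in alveolar fibroblasts, alveolar macrophages, club cells and smooth muscle. Between types they were -0.0388 to 0.0255 for S1pr1 in aerocytes, -0.175 to 0.0618 for Spns2 in arterial cells and -0.0458 to 0.0874 for Klf4 in venous cells, each against general capillary cells, -0.15 to 0.23 for Klf6 in endothelium against the rest, and -0.0679 to 0.0380 for S1pr1 between immediate early scores. Library totals in place of TMM turned Klf4 to 0.0230 between genotypes in blood endothelium, S1pr1 to 0.0127 in aerocytes, Klf4 to -0.0274 in venous and to 0.0603 in lymphatic cells. Klf4 in venous cells also turned to -0.0210 without the low-count filter. S1pr1 in aerocytes turned to 0.000581 with members allowed in the clustering and to 0.0797 without the high-UMI cluster, and Klf10 between genotypes to -0.0348 among lower-scoring cells. The cause was not tested in any of these.

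Other calls changed with the tool or filter. DESeq2 lost S1pr3 in aerocytes (adjusted p = 0.0534) and Klf10 in arterial against general capillary (0.145), arterial against venous (0.0875) and lymphatic cells (0.565), the last also lost without the filter (0.0592). With members allowed in the clustering Klf2 in aerocytes was called (0.0386) and Klf10 between arterial and venous cells was not (0.195). That clustering also changed which cells made up each type, and its arterial type was smaller. Without the filter 1 member, S1pr1, was called in club cells (adjusted p = 3.08e-09). Genes called between genotypes in blood endothelium were 0 in the edgeR fit reported, 7 with DESeq2, 42 without the filter and 1 to 24 without 1 library. In general capillary cells they were 0, against 13 with DESeq2, 69 without the filter and 0 to 14 without 1 library. Of arterial against venous genes 2696 were called, against 1514 with DESeq2, and of lymphatic genes 4419, against 2942.

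The set letters were shared by number only, and deviations of same-letter libraries correlated at 0.45 to 0.71 in endothelial types. With the set letter as a replicate block, Klf2 in blood endothelium was -0.27 (adjusted p = 0.754), Spns2 in arterial cells 0.49 (0.151), and no member was called in endothelium. Under the block 1 member was called in club cells (S1pr1, 2.68, 0.00424) and 1 in alveolar macrophages (Klf2, -1.13, 1.49e-05), and 13 genes were called in blood endothelium, 4 in general capillary cells, 10 in aerocytes, 37 in arterial and 38 in venous cells.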
